A study of Mus musculus with 12 samples.

Results

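Immunity-related GTPases (IRGs) are interferon-inducible proteins of the cytosol that bind GTP and collect on membranes around intracellular pathogens. Their genes were taken here as the 7 of the 24421 genes in the data whose symbols are *Irgm1*, *Irgm2*, *Igtp*, *Iigp1*, *Ifi47*, *Tgtp1* and *Tgtp2*, a rule that uses no measured value, and all 7 were found. *Irgm1*, *Irgm2* and *Igtp* (also called Irgm3) encode the GMS proteins, named after an unusual residue of their GTP-binding loop. These regulators sit on the cell's own membranes and hold the effectors inactive there. *Iigp1* (Irga6), *Ifi47* (Irgd), *Tgtp1* and *Tgtp2* (both Irgb6) encode the GKS effectors, which load onto the vacuoles of parasites and bacteria with help from the autophagy conjugation system. In macrophages the family is best known as a target of type I and type II interferon.

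The data are RNA-seq libraries of mouse bone marrow macrophages (BMMs, the precursors of osteoclasts), grown with M-CSF for 3 days. All mice carried LysMcre, a Cre driven by the lysozyme M promoter that is active in myeloid cells. The study names C57BL/6 as the background of the LysMcre line used in its crosses, and the background of each library was not checked. In the loss of function experiment, WT (Mir182+/+LysMcre(+)) and Mir182ΔM/ΔM (Mir182flox/floxLysMcre(+)) cells were left unstimulated (basal) or given RANKL, the cytokine that induces osteoclasts, for 5 days. In the gain of function experiment, Control (LysMcre(+)) and Mir182mTg (LSL-Mir182LysMcre(+), in which Cre removes a stop cassette in front of *Mir182*) cells were unstimulated. The question was which genes miR-182 affects in osteoclast precursors. Each of the 6 conditions had 2 libraries, 12 in all, which held 24951280 to 33050619 reads on genes, so that 3 reads stood for 0.0908 to 0.120 CPM (reads per 1000000 counted on genes). The study calls the replicates biological, and ages and numbers of mice are not given in the sources used here. P-values therefore measure the spread between these libraries only. In bulk RNA, fewer cells that express a gene and less of its RNA per cell cannot be told apart.

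The promoters of 6 members, all but *Iigp1*, were found in the RefSeq table used (build GRCm38.p6), which gives 250 bases before and 50 bases after each gene's start. They were searched for the letters GAAANNGAAA on both strands, the core of the interferon-stimulated response element (ISRE) bound by interferon-regulatory factors, and for TTCNNNGAA, the core of the gamma-activated site (GAS), which reads the same on both strands. The ISRE core was found in 5 of the 6 windows, against 3.44% of all 32851 promoter windows, and the GAS core in 4 of the 6, against 8.3%. Both were present in 4 of the 6 windows and in 0.454% of all windows. The stretches that hold them are printed here, 5′ to 3′ on the gene's strand (minus for *Irgm1*, *Tgtp1* and *Tgtp2*, plus for *Igtp* and *Irgm2*), because they show the element that these members share. Capitals mark the matched letters, which in *Irgm1* are 2 overlapping ISRE cores and in the other 4 genes a GAS core followed by an ISRE core, with no overlap between them.
Irgm1 (chr11:48871428-48871457): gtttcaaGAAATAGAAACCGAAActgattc
Igtp (chr11:58199507-58199536): ccatTTCTAGGAActGAAACTGAAAgctgt
Irgm2 (chr11:58214898-58214927): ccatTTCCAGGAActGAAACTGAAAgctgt
Tgtp1 (chr11:48992309-48992338): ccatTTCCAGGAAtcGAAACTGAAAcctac
Tgtp2 (chr11:49064268-49064297): ccatTTCCAGGAAtcGAAACCGAAAcctac

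The first matched base lay 30 bases before the RefSeq start in *Irgm1*, 45 in *Igtp*, 75 in *Irgm2*, 88 in *Tgtp1* and 81 in *Tgtp2*. The window of *Ifi47* held neither set of letters. A match is a description of the sequence and shows no binding. The microRNA itself, miR-182-5p (chr6:30165962-30165986, minus strand, RefSeq, GRCm38.p6), is printed with its seed, bases 2 to 8, in capitals.
miR-182-5p: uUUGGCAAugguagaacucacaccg

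The letters TTGCCAA, which pair with the whole seed, were present in the annotated 3′ UTR of *Tgtp1* and *Tgtp2* and of no other member. Of the 21166 genes with an annotated 3′ UTR (GENCODE vM21, GRCm38), 13.2% held them. The letters TGCCAAA, the other common 7-base site, were in none of the 7 members, against 14.3% of all genes. The 6 letters common to both, TGCCAA, were in 4 members, *Irgm2*, *Igtp*, *Tgtp1* and *Tgtp2*, against 35.5% of all genes.

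The WT RANKL libraries differed sharply from the rest of their experiment in genes that are not members. *Lyz2*, the macrophage lysozyme whose promoter drives LysMcre, was at 39.8 to 44.0 CPM in WT basal, 31.2 to 34.6 CPM in Mir182ΔM/ΔM basal and 22.5 to 24.0 CPM in Mir182ΔM/ΔM RANKL libraries. It was at 4117 and 4288 CPM in the WT RANKL libraries, near the 5783 to 7062 CPM of Control and Mir182mTg. *Ifi202b*, an interferon-inducible gene of the p200 family, split the same libraries the other way. It was at 0.972 and 1.12 CPM in WT RANKL and at most 0.0908 CPM in Control and Mir182mTg, and between 82.1 and 152 CPM in the other 6. The comparisons that use WT RANKL therefore contrast libraries that also differ in these genes, and what this difference and RANKL or the genotype each contribute cannot be told apart. No value of these comparisons exists without the WT RANKL libraries, and the other comparisons are given with and without them. *Mir182* gave at most 1 read in the 10 libraries other than Mir182mTg, where it was at 2.39 and 4.40 CPM, so the deletion could not be checked from this gene.

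Among marker lists, T or NK cell, B cell, dendritic cell and erythroid cell genes summed to at most 3.67 CPM in any library, and macrophage genes (*Csf1r*, *Cd68* and others) to between 5620 and 8475 CPM. The 6 stromal cell genes, mostly collagens by level, summed to 7.03 and 20.1 CPM in WT basal, 16.8 and 36.9 CPM in WT RANKL, 4.48 and 22.8 CPM in Mir182ΔM/ΔM basal and 14.7 and 31.2 CPM in Mir182ΔM/ΔM RANKL, and to 1.72 to 18.7 CPM in Control and Mir182mTg. The 9 osteoclast genes summed to 132 to 166 CPM in the basal loss of function libraries, to 10585 and 10797 CPM in WT RANKL and to 3171 and 3201 CPM in Mir182ΔM/ΔM RANKL. The 6 neutrophil genes found in the data fell alongside, from 56.1 to 76.2 CPM at baseline to 12.4 and 13.6 CPM in WT RANKL and 3.97 and 4.37 CPM in Mir182ΔM/ΔM RANKL. The part of these cell states in the members' values was not tested.

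**Figure D1:**
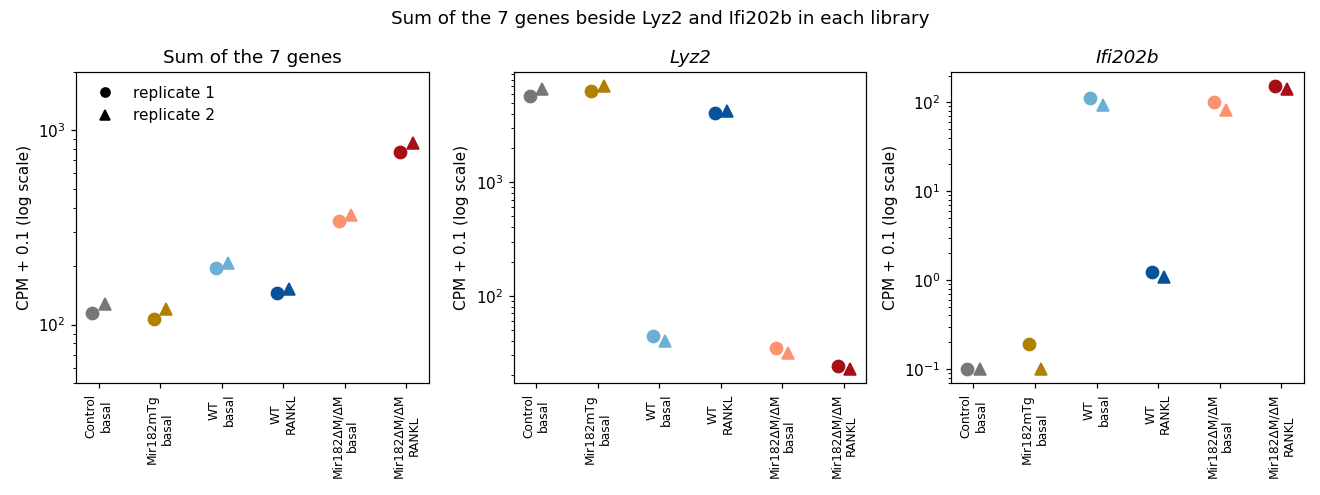
Sum of the 7 genes, *Lyz2* and *Ifi202b* in each of the 12 libraries, as CPM plus 0.1 on a log axis; circles are replicate 1 and triangles replicate 2. The WT RANKL libraries sit with Control and Mir182mTg for *Lyz2* and far below the other 6 loss of function libraries for *Ifi202b*, and the sum of the 7 genes is highest in Mir182ΔM/ΔM RANKL, at 778 and 863 CPM.

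The summed level of the 7 genes was 107 and 120 CPM in Mir182mTg, 115 and 127 CPM in Control, 145 and 152 CPM in WT RANKL and 195 and 207 CPM in WT basal BMMs. It was 341 and 367 CPM in Mir182ΔM/ΔM basal cells and 778 and 863 CPM in Mir182ΔM/ΔM RANKL cells. The same order of conditions, from Mir182mTg and Control at the bottom to Mir182ΔM/ΔM RANKL at the top, held for the mean of each of *Irgm1*, *Irgm2*, *Igtp*, *Iigp1* and *Ifi47*. For *Tgtp2* Control and Mir182mTg changed places, by less than the spread of their replicates. The order across all conditions joins separate experiments, whose unstimulated control groups already differed. The sum was 115 and 127 CPM in Control against 195 and 207 CPM in WT basal. *Lyz2* was at 5783 and 6615 CPM in Control against 44.0 and 39.8 CPM in WT basal. The order between experiments is therefore not read as an effect of miR-182, and the part of the experiment in it was not tested.

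**Figure D2:**
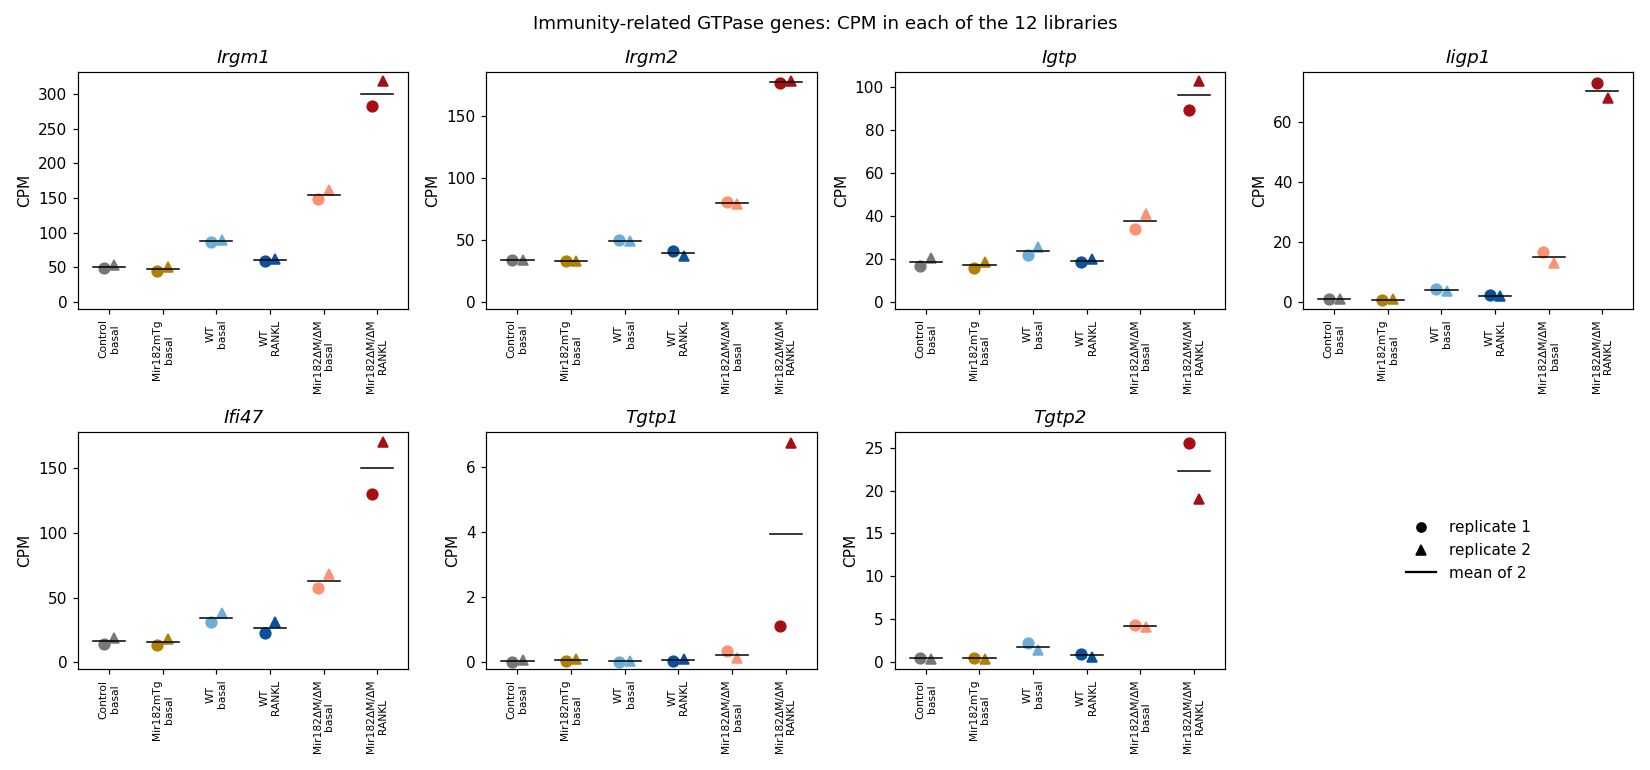
CPM of each of the 7 genes in each of the 12 libraries, one panel per gene on its own linear axis; circles are replicate 1, triangles replicate 2 and bars the mean of 2. In every panel both Mir182ΔM/ΔM RANKL libraries lie above all others, and *Tgtp1* is near 0 outside them. For *Tgtp1*, which passed the filter on low values only through these libraries, this is no support. The share of all genes with this pattern was not counted.

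*Irgm1*, a regulator found at the Golgi and lysosomes that macrophages need against intracellular bacteria, was the most abundant member. It stood at 87.2 and 89.5 CPM in WT basal, 59.5 and 61.9 CPM in WT RANKL, 148 and 162 CPM in Mir182ΔM/ΔM basal and 282 and 319 CPM in Mir182ΔM/ΔM RANKL libraries. In Control it was at 48.9 and 52.8 CPM and in Mir182mTg at 44.2 and 50.4 CPM. The 4 loss of function conditions did not overlap, and Control and Mir182mTg did. The share of all genes without such overlap was not counted, here or for the other members. *Irgm2*, the regulator at the Golgi, was at 49.5 and 48.9 CPM in WT basal, 41.0 and 37.0 CPM in WT RANKL, 80.4 and 78.9 CPM in Mir182ΔM/ΔM basal and 176 and 178 CPM in Mir182ΔM/ΔM RANKL libraries. It was at 34.0 and 33.6 CPM in Control and at 33.2 and 32.6 CPM in Mir182mTg. The 4 loss of function conditions did not overlap for *Irgm2*. Control and Mir182mTg, of the separate experiment, did not overlap either but lay close, at 33.6 against 33.2 CPM at the nearest.

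*Igtp*, the regulator at the endoplasmic reticulum and lipid droplets, was at 21.6 and 25.7 CPM in WT basal, 18.4 and 19.9 CPM in WT RANKL, 34.0 and 40.9 CPM in Mir182ΔM/ΔM basal and 89.3 and 102 CPM in Mir182ΔM/ΔM RANKL libraries. It was at 16.7 and 20.6 CPM in Control and at 15.6 and 18.5 CPM in Mir182mTg. These last 2 conditions overlapped, and Control overlapped with WT RANKL. In GENCODE the annotated bodies of *Igtp* (chr11:58199556-58207591, plus strand) and *Irgm2* (chr11:58199618-58222782, plus strand) share 7974 bases. If such bodies were counted, reads in shared parts could have been given to either gene or to none. In RefSeq the promoter window of *Irgm2* (chr11:58214727-58215026) lies past the end of *Igtp*, so the overlap depends on the annotation counted. *Irgm1* lies apart from them at chr11:48861968-48871683 on the minus strand (GENCODE vM21, GRCm38).

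Among the effectors, *Iigp1* covered the widest range of the well-measured members. This GTPase is among the IRGs that load onto the vacuole of Toxoplasma, and its gene lies on chromosome 18 (60376027 to 60392634, plus strand). It was at 4.40 and 3.53 CPM in WT basal, 2.12 and 1.91 CPM in WT RANKL, 16.6 and 13.0 CPM in Mir182ΔM/ΔM basal and 73.1 and 67.8 CPM in Mir182ΔM/ΔM RANKL libraries. In Control it was at 0.830 and 0.945 CPM and in Mir182mTg at 0.484 and 0.824 CPM. The 4 loss of function conditions did not overlap for *Iigp1*. Control and Mir182mTg did not overlap either, but only by a narrow margin, at 0.830 against 0.824 CPM. *Ifi47*, a less studied effector, was at 30.7 and 38.0 CPM in WT basal, 22.7 and 30.7 CPM in WT RANKL, 57.2 and 68.1 CPM in Mir182ΔM/ΔM basal and 130 and 170 CPM in Mir182ΔM/ΔM RANKL libraries. It was at 13.6 and 19.0 CPM in Control and at 12.9 and 17.6 CPM in Mir182mTg. WT basal and WT RANKL overlapped for *Ifi47*, as did Control and Mir182mTg, and replicate 2 was the higher of each pair.

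*Tgtp1* (chr11:48985327-48994172) and *Tgtp2* (chr11:49057194-49064206), both on the minus strand, are near-identical copies that encode Irgb6. Their longest coding sequences, of 1245 bases each, differed at 4 positions (99.7% identity), against 54.7% to 69.7% identity for every other pair of members. How the counting divided reads between such copies is not given in the sources used here, so the split between them is uncertain. *Tgtp2* was at 2.17 and 1.36 CPM in WT basal, 0.998 and 0.648 CPM in WT RANKL, 4.29 and 4.07 CPM in Mir182ΔM/ΔM basal and 25.6 and 19.0 CPM in Mir182ΔM/ΔM RANKL libraries, with no overlap among these conditions. It was at 0.447 and 0.416 CPM in Control and at 0.484 and 0.394 CPM in Mir182mTg, which overlapped. *Tgtp1* gave 34 and 171 reads in the Mir182ΔM/ΔM RANKL libraries, 9 and 3 reads in Mir182ΔM/ΔM basal and 0 to 3 reads in each of the other 8 libraries. The share of the pair's reads given to *Tgtp1* was 4.19% in replicate 1 and 26.1% in replicate 2 of Mir182ΔM/ΔM RANKL. The sum of the pair was close in these libraries, at 26.7 and 25.8 CPM, so the replicates differed in the split and less in the sum.

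**Figure D3:**
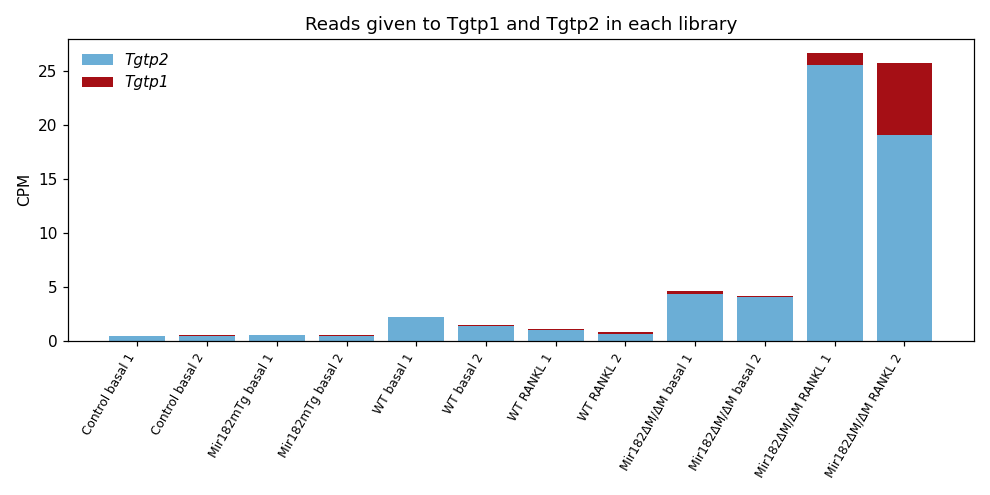
CPM of *Tgtp2* (lower part of each bar) and *Tgtp1* (upper part) in each of the 12 libraries, on a linear axis from 0. The Mir182ΔM/ΔM RANKL bars are of nearly equal height, 26.7 and 25.8 CPM, while the part given to *Tgtp1* is 4.19% of the first and 26.1% of the second.

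Levels of different members were compared per kilobase of the length that the deposited RPKM imply. In the WT basal libraries *Irgm1* was highest, with a mean of 39.7 CPM per kilobase (± 0.717, SD, n = 2), followed by *Ifi47* at 17.0 ± 2.56, *Irgm2* at 14.0 ± 0.115 and *Igtp* at 11.7 ± 1.45. The effectors *Iigp1* and *Tgtp2* were an order of magnitude lower, at 1.27 ± 0.198 and 0.627 ± 0.203 CPM per kilobase. In Mir182ΔM/ΔM RANKL libraries *Irgm1* stood at 135 ± 11.5, *Ifi47* at 74.6 ± 14.1, *Irgm2* at 50.4 ± 0.392, *Igtp* at 47.4 ± 4.60, *Iigp1* at 22.6 ± 1.19 and *Tgtp2* at 7.92 ± 1.63 CPM per kilobase. *Irgm2* and *Igtp* overlapped there, and their order is not resolved. In Control the levels of *Irgm2*, *Igtp* and *Ifi47* lay together, at 9.62 ± 0.0735, 9.22 ± 1.34 and 8.11 ± 1.89 CPM per kilobase, with overlap between neighbours.

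After RANKL, the 6 members other than *Tgtp1* were higher in Mir182ΔM/ΔM than in WT cells. For the effectors *Iigp1* and *Tgtp2* the mean CPM was 35.0 and 27.1 times that in WT, and for *Irgm1*, *Irgm2*, *Igtp* and *Ifi47* it was 4.95, 4.54, 5.01 and 5.62 times as high. The log2 differences, on the log2(CPM + 1) scale that understates changes of low genes, were 4.57 for *Iigp1* (SE 0.142, adjusted p = 1.5e-06), 3.67 for *Tgtp2* (SE 0.193, adjusted p = 1.3e-05), 2.45 for *Ifi47* (SE 0.193, adjusted p = 7.7e-05) and 2.29, 2.16 and 2.26 for *Irgm1*, *Irgm2* and *Igtp* (adjusted p at most 1.8e-05, limma with Benjamini-Hochberg adjustment over 11691 genes). All 7 members passed the filter on low values, and these 6 were called higher, against 14.3% of all genes tested. *Tgtp1* was called too, but it passed that filter only through the Mir182ΔM/ΔM RANKL libraries and had to differ, so its calls in comparisons that use these libraries are no support and are not counted. Its adjusted p of 0.020 became 0.0745 without WT RANKL replicate 1 and 0.0673 without WT RANKL replicate 2. For the pair of *Tgtp* genes summed, an alternative chosen after the data were seen, the log2 difference was 3.85 (SE 0.152, adjusted p = 4.0e-06 by limma). The median log2 difference of all 7, *Tgtp1* included, was 2.29 against -0.14 over all genes, and the WT RANKL libraries on which it rests are those that stood apart in *Lyz2* and *Ifi202b*.

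At baseline the same genotypes differed less. Those libraries take no part in these log2 differences, but they share the fit and the filter behind the adjusted p. *Iigp1* was 3.73 times as high in Mir182ΔM/ΔM as in WT BMMs, *Irgm1* 1.75 times, *Irgm2* 1.62 times and *Igtp* 1.59 times, with log2 differences of 1.67 (SE 0.142, limma adjusted p = 0.0020), 0.80 (SE 0.0805, adjusted p = 0.0035), 0.69 (SE 0.0694, adjusted p = 0.0035) and 0.64 (SE 0.130, adjusted p = 0.045). These 4 of 7 members were called higher, against 2.71% of all genes. *Ifi47* had a log2 difference of 0.85 (limma adjusted p = 0.065), *Tgtp2* of 0.92 (adjusted p = 0.051) and *Tgtp1* of 0.26 (adjusted p = 0.91), all without a call. With the replicate number as a block, *Ifi47* (adjusted p = 3.7e-11) and *Tgtp2* (adjusted p = 3.1e-06) were called too, so that 6 of 7 members passed, against 18.6% of all genes. The call of *Igtp* was lost when any of the 8 libraries was left out, with an adjusted p from 0.0751 (without Mir182ΔM/ΔM RANKL replicate 1) to 0.244 (without Mir182ΔM/ΔM basal replicate 2). *Irgm1*, *Irgm2* and *Iigp1* kept theirs in each of these fits. Without both WT RANKL libraries 3 of 7 members were called higher, against 212 of all 11430 genes tested in that fit. The limma adjusted p was 0.010 for *Irgm1*, 0.0065 for *Irgm2*, 0.0054 for *Iigp1* and 0.077 for *Igtp*, which was not called.

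In WT cells 4 of the 7 members, *Iigp1*, *Tgtp2*, *Irgm1* and *Irgm2*, were lower in the RANKL than in the basal libraries. This comparison rests on the WT RANKL libraries, which also differed from WT basal in *Lyz2* and *Ifi202b*. That difference and RANKL cannot be told apart here. *Iigp1* was at 0.507 of its basal mean CPM, *Tgtp2* at 0.466, *Irgm1* at 0.687 and *Irgm2* at 0.793. The log2 differences were -0.72 (SE 0.142, limma adjusted p = 0.0036), -0.59 (SE 0.193, adjusted p = 0.031), -0.53 (SE 0.0805, adjusted p = 0.00093) and -0.33 (SE 0.0694, adjusted p = 0.0048). Over all genes 22% were called lower. *Igtp* had a log2 difference of -0.29 (limma adjusted p = 0.093) and *Ifi47* of -0.36 (adjusted p = 0.14), both without a call, and *Tgtp1* was within 0 to 3 reads in these 4 libraries (log2 difference 0.07). The median gene moved by 0.19 in this comparison, by -0.14 between genotypes after RANKL and by -0.15 in the interaction (log2). Over all genes 4741 were higher and 2571 lower after RANKL in WT cells, and with CPM divided by TMM factors, which re-centre the libraries, 3377 and 3559. Between genotypes after RANKL 1668 were higher and 3607 lower, with TMM factors 2440 and 2362, and in the interaction 870 and 2005, with TMM factors 1238 and 1275. With TMM factors *Igtp* (-0.48, adjusted p = 0.017) and *Ifi47* (-0.56, adjusted p = 0.043) were also called lower, making 6 of 7 against 30.4% of all genes. With the replicate block they were called as well (adjusted p = 9.0e-05 for *Igtp* and 1.2e-06 for *Ifi47*), again 6 of 7, against 29% of all genes. The call of *Tgtp2* was lost without WT basal replicate 1 (adjusted p = 0.163) and without WT RANKL replicate 2 (adjusted p = 0.148).

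In Mir182ΔM/ΔM cells the 6 members other than *Tgtp1* rose after RANKL. *Tgtp2* reached 5.34 times and *Iigp1* 4.76 times its basal mean CPM, and *Igtp*, *Ifi47*, *Irgm2* and *Irgm1* reached 2.56, 2.40, 2.22 and 1.94 times. The log2 differences were 2.19 for *Iigp1* (SE 0.142, limma adjusted p = 1.6e-05), 2.16 for *Tgtp2* (SE 0.193, adjusted p = 7.9e-05), 1.34 for *Igtp* (SE 0.130), 1.24 for *Ifi47* (SE 0.193), 1.14 for *Irgm2* (SE 0.0694) and 0.95 for *Irgm1* (SE 0.0805), with adjusted p from 1.2e-05 to 0.0013 for the last 4. These 6 members were called higher, against 30.4% of all genes. Without both WT RANKL libraries these 6 members were called again, against 3393 of all 11430 genes tested in that fit. Each log2 difference was identical because the WT RANKL libraries take no part in it. *Tgtp1*, tested through the filter that its own level after RANKL let it pass, was at 1.73 (SE 0.510, limma adjusted p = 0.023) and lost its call without Mir182ΔM/ΔM basal replicate 1 (adjusted p = 0.0596) and without Mir182ΔM/ΔM basal replicate 2 (adjusted p = 0.0917). The pair summed rose from 4.63 and 4.18 CPM to 26.7 and 25.8 CPM, a log2 difference of 2.33 (SE 0.152, adjusted p = 1.6e-05).

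**Figure D4:**
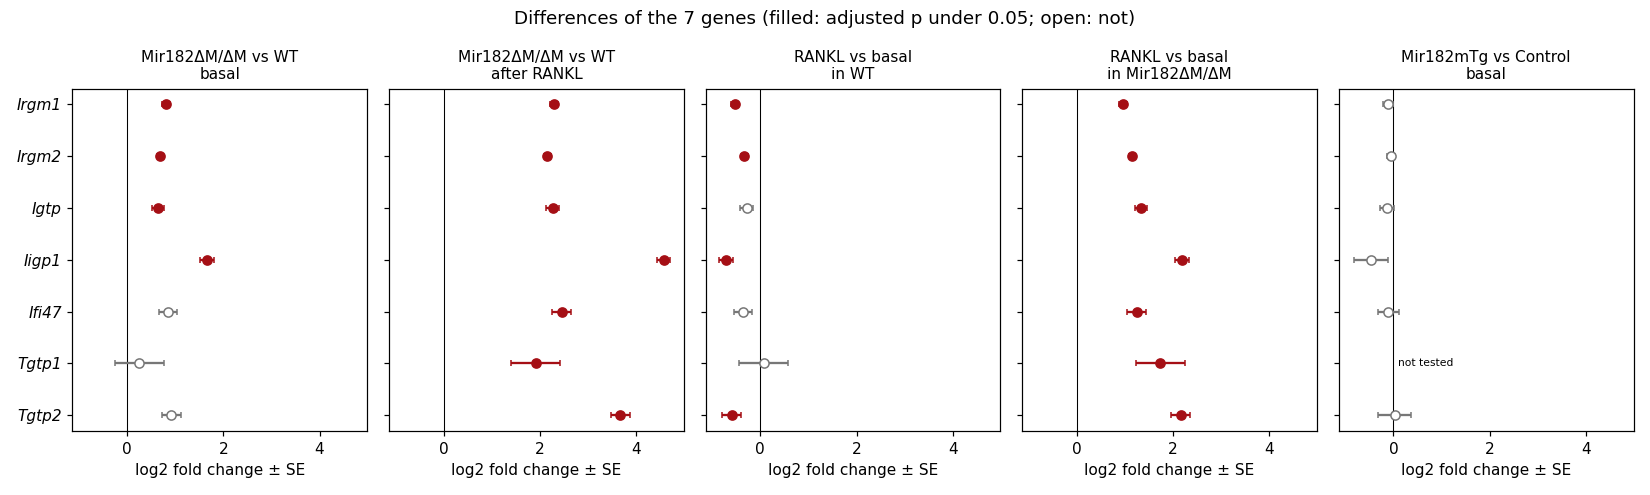
Log2 difference of each of the 7 genes with its standard error in 5 comparisons (limma on log2(CPM + 1), or edgeR for Mir182mTg against Control); filled red points have an adjusted p under 0.05. The differences after RANKL between genotypes are the largest, up to 4.57 for *Iigp1*, and the points of the Mir182mTg panel lie between -0.46 and 0.02.

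Whether RANKL acted differently in the genotypes was tested directly by the interaction term. The response in Mir182ΔM/ΔM cells exceeded that in WT cells by 2.90 for *Iigp1* (SE 0.201, limma adjusted p = 0.00013) and by 2.75 for *Tgtp2* (SE 0.273, adjusted p = 0.00051) on the log2 scale. For *Igtp*, *Ifi47*, *Irgm1* and *Irgm2* the excess was 1.62, 1.60, 1.49 and 1.47, with adjusted p from 0.00012 to 0.0056. These 6 members were called, against 7.44% of all genes. *Tgtp1* had an excess of 1.66 with an SE of 0.722 (limma adjusted p = 0.15). With the replicate block, where 16.1% of all genes were called higher, its adjusted p was 0.0021, and the filter limits this value in the same way. This test also rests on the WT RANKL libraries.

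Overexpression of miR-182 gave no detected difference in the members. The log2 differences between Mir182mTg and Control were -0.11 for *Irgm1* (SE 0.102), -0.05 for *Irgm2* (SE 0.0800), -0.14 for *Igtp* (SE 0.150), -0.46 for *Iigp1* (SE 0.354), -0.11 for *Ifi47* (SE 0.223) and 0.02 for *Tgtp2* (SE 0.349). None of the 6 members tested was called by edgeR's quasi-likelihood test (adjusted p = 0.9997 for each), none had an unadjusted p under 0.05, and 0.257% of all genes were called. *Tgtp1*, at 0 and 2 reads in Control and 1 and 3 reads in Mir182mTg, was too low to test. DESeq2 also called 0 members. With the replicate block 0 of 6 were called, with 1 unadjusted p under 0.05, against 15.1% of all genes. The standard errors of *Iigp1*, *Ifi47* and *Tgtp2* were wide, and a p that misses the threshold does not show that the levels were alike. *Eif2ak2*, which encodes the interferon-inducible kinase PKR, was at 121 and 111 CPM in Control and 77.9 and 72.6 CPM in Mir182mTg, a log2 difference of -0.63 (SE 0.0860, edgeR adjusted p = 0.085). In the loss of function libraries it followed the order of the members, from a mean of 85.3 ± 6.68 CPM (SD, n = 2) in WT RANKL to 251 ± 6.19 CPM in Mir182ΔM/ΔM RANKL.

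Counts of related genes are read against the share of all genes called. That share was 14.3% higher and 30.9% lower between genotypes after RANKL, 2.71% and 1.1% at baseline, 40.6% and 22% for RANKL in WT, 30.4% and 26.4% for RANKL in Mir182ΔM/ΔM cells and 7.44% and 17.1% for the interaction. For every list, the comparisons between genotypes after RANKL, for RANKL in WT and for the interaction rest on the WT RANKL libraries. Other genes of the IRG family were read from a fixed list of 12, of which 10 were in the data and 7 passed the filter. After RANKL 6 of the 7 were higher and 1 was lower in Mir182ΔM/ΔM than in WT, with a median log2 difference of 1.88 against -0.14 for all genes. *Gm4951*, a neighbour and relative of *Iigp1*, was at 1.64 and 1.37 CPM in WT RANKL and at 48.8 and 49.5 CPM in Mir182ΔM/ΔM RANKL libraries, a log2 difference of 4.33 (limma adjusted p = 5.6e-07). *F830016B08Rik*, of the same cluster, had a log2 difference of 3.93, and *Gm12250* (Irgb10, an effector that attacks bacterial membranes) of 3.08. The lower gene was *Irgq*, a quasi-GTPase of the family, at 33.2 and 34.3 CPM in WT RANKL and 21.6 and 20.2 CPM in Mir182ΔM/ΔM RANKL libraries. At baseline 3 of the 7 (*Gm4951*, *F830016B08Rik* and *Gm12250*) were higher and 0 lower. In WT cells all 7 were lower in the RANKL than in the basal libraries, *Gm5431* by 1.60 and *Gm4951* by 1.55 on the log2 scale. In Mir182ΔM/ΔM cells 4 rose and 1, *Irgq*, fell. The interaction was higher for 5 and lower for 1 of the 7, and between Mir182mTg and Control edgeR called 0 of 7, a set in which *9930111J21Rik2* stands in place of *F830016B08Rik* because the count filter kept the one and not the other.

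Of 16 interferon signalling genes tested from a list of 19, 7 were higher and 3 lower in Mir182ΔM/ΔM than in WT after RANKL, with a median log2 difference of 0.14. *Stat2*, a transcription factor of the type I interferon pathway, differed by 2.32 and *Usp18*, an interferon-induced brake on receptor signalling, by 3.34, while *Irf8* was lower, at -0.82. At baseline 3 of 16 were higher and 1 was lower. After RANKL, *Stat2* fell by 1.31 in WT cells. In WT cells 4 of the 16 rose and 5 fell after RANKL, no larger a share rising than of all genes, and in Mir182ΔM/ΔM cells 11 rose and 2 fell. *Socs1*, among these 11, passed the filter only through RANKL libraries, so its rise is no support. The interaction was higher for 7 and lower for 1, and 0 of 16 were called between Mir182mTg and Control. The 3 interferon genes of the list, named here although none passed the filter, were at or near the limit of detection. *Ifnb1* was at 0.0985 and 0.197 CPM in Mir182ΔM/ΔM RANKL libraries, at 0.0370 and 0.0746 CPM in Mir182ΔM/ΔM basal, at 0 and 0.0378 CPM in Control and at 0 in all WT and Mir182mTg libraries. These values stand for a few reads at most, and *Ifna4* and *Ifng* were at 0 in all 12.

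The guanylate-binding proteins are large interferon-inducible GTPases recruited to the same vacuoles. Of 9 tested, 7 were higher and 2 lower in Mir182ΔM/ΔM than in WT after RANKL (median log2 difference 1.77), led by *Gbp2* at 3.61 and *Gbp6* at 3.52. At baseline 4 were higher and 1 lower, and the interaction was higher for 6 and lower for 1. In Mir182ΔM/ΔM cells 8 of 9 rose after RANKL and 0 fell, and in WT cells 7 rose and 1 fell. Both counts include *Gbp4* and *Gbp8*, which were under 1 CPM in every basal library and passed the filter only through RANKL libraries. Their rises are therefore no support, such as that of *Gbp8* in WT cells from 0.642 and 0.882 to 7.98 and 8.39 CPM. *Gbp2b* was at 4.61 to 7.80 CPM in the 4 WT libraries and at most 0.197 CPM in the 4 Mir182ΔM/ΔM libraries. It passed the filter only through WT libraries, so its lower calls between genotypes are no support either. Between Mir182mTg and Control 0 of 7 tested were called. Of the 12 genes of autophagy conjugation (ATG conjugation), which IRG effectors need to load onto vacuoles, 2 were higher and 3 lower after RANKL between genotypes, 0 and 2 at baseline, and 0 of 12 were called in Mir182mTg. Between genotypes after RANKL these shares lay near those of all genes. At baseline 1.1% of all genes were lower. Of the 12, 1 was higher and 6 lower after RANKL in WT cells, where 22% of all genes were lower. In Mir182ΔM/ΔM cells 0 rose and 6 fell, against 26.4% of all genes falling. The interaction was higher for 2 and lower for 1. Between genotypes after RANKL the log2 difference was -0.61 for *Map1lc3b* and -0.44 for *Atg5* (limma adjusted p = 0.0058 and 0.0017). *Atg12* and *Gabarapl1* went the other way, at 0.44 and 0.20 (limma adjusted p = 0.0030 and 0.043).

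Over the 8 loss of function libraries the members varied together. Pearson's r between log2(CPM + 1) of any pair of *Irgm1*, *Irgm2*, *Igtp*, *Iigp1*, *Ifi47* and *Tgtp2* lay between 0.953 and 0.997, and r of *Tgtp1* with the others between 0.780 and 0.844. These points share libraries, depth and 4 conditions, and r describes their likeness only. Among 11682 other genes, those most like the mean of the centred members were *Tpst1* (a tyrosylprotein sulfotransferase) at r = 0.998, *Itpr1* (a calcium channel of the endoplasmic reticulum) at 0.997, *Phf11a* at 0.997, *Parp12* at 0.996 and *Oas3* (which makes the activator of RNase L) at 0.995. The gene most like a single member was *Gm12250* for *Irgm1* (r = 0.999), *Oas3* for *Irgm2* (0.998), *Isg15*, the ubiquitin-like modifier, for *Igtp* (0.999), *Ifit3* for *Iigp1* (0.9997), *Dhx58* for *Ifi47* (0.996), *Phf11d* for *Tgtp2* (0.995) and *Cinp* for *Tgtp1* (0.940).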

How the data were processed

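The study's methods describe poly-A selection, and the 12 libraries were mapped to mm10. The submitters' processing notes name TopHat and Cufflinks for replicate 1 and HISAT2, HTSeq and edgeR for replicate 2, and the labels name polyA RNA for replicate 1 and total RNA for replicate 2. *Rn45s*, a ribosomal RNA gene, was at 742 to 1176 CPM in replicate 1 and at 9778 to 21273 CPM in replicate 2 libraries. The part of this difference in the members' values was not tested. Whether counting used strand is not given in the sources used here. The authors deposited CPM of 24421 genes for the WT and Mir182ΔM/ΔM samples, scaled to 1000000 per library without TMM, and all values came out as whole reads (100%, within 0.05 read). For gain of function samples they deposited the raw count per gene, scaled here to CPM for display only. Replicate 1 files also hold deposited RPKM, used only for gene lengths. Of the gene names, 27 had turned into dates or numbers.

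CPM were tested with limma 3.58.1 (trended eBayes) on log2(CPM + 1), in one fit of 8 libraries and 4 groups, over the 11691 genes that reached 1 CPM in 2 or more libraries. Counts were tested with edgeR 4.0.16 (TMM, filterByExpr, quasi-likelihood) over 12081 genes. P-values were adjusted by Benjamini-Hochberg over all genes tested, with a threshold of 0.05. The members, lists and tests were chosen with earlier results of these data known. Named genes were the members, label checks, up to 4 called genes per list and comparison by size, genes of small lists, and the genes most like the members; 1 gene that this rule names is not reported here. The scripts were tested on simulated data.

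Replicate numbers come from the labels. Same-numbered libraries deviated together from their group means (r across genes from 0.749 to 0.826 over 6 pairs of loss of function conditions and 0.785 for the gain of function pair), so the number was tried as a block. Other alternatives were no filter, a stricter filter, a pseudocount of 0.1, TMM factors, edgeR on the recovered reads (which called 2481 genes higher and 2448 lower between genotypes after RANKL), DESeq2 1.42.0 and upper-quartile scaling for the counts, each library left out in turn, and the fit without both WT RANKL libraries. The 3-read limit covers counting error only, and errors (SE, SD) come from the spread between libraries.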

Additional observations from a re-analysis of the deposited data

Results flagged for a closer look

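The response to RANKL differed between the genotypes by the interaction test for 6 members. On the log2(CPM + 1) scale the response in Mir182ΔM/ΔM minus that in WT cells was 1.49 for *Irgm1* (limma adjusted p = 0.00020), 1.47 for *Irgm2* (adjusted p = 0.00012), 1.62 for *Igtp* (adjusted p = 0.00095), 2.90 for *Iigp1* (adjusted p = 0.00013), 1.60 for *Ifi47* (adjusted p = 0.0056) and 2.75 for *Tgtp2* (adjusted p = 0.00051). All 6 rest on the WT RANKL libraries, which differed from the 6 other WT and Mir182ΔM/ΔM libraries in *Lyz2* and *Ifi202b*, and the part of that difference in the interaction was not tested.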

How the results depend on the processing

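The counts of members called stayed within 1.5 times of the reported count under each alternative run. Of 688 alternative values of single genes and medians, 611 kept direction and call (or moved by less than the replicate spread), 14 gained and 19 lost a call, 39 moved and 5 changed sign. The sign changes were all between Mir182mTg and Control with 1 library left out, where values ranged from -0.29 to 0.02 for *Igtp*, from -0.35 to 0.15 for *Ifi47* and from -0.15 to 0.16 for *Tgtp2*. Without Control replicate 2 *Igtp* was 0.020, *Ifi47* 0.15 and *Tgtp2* -0.02, and without Mir182mTg replicate 1 *Ifi47* was 0.10 and *Tgtp2* -0.15. *Igtp* at baseline also lost its call without a filter (adjusted p = 0.073), with TMM factors (0.052) and with edgeR on recovered reads (0.053), and *Tgtp2* in WT cells without a filter (0.053). *Igtp* and *Ifi47* in WT cells were also called with edgeR on recovered reads (0.016 and 0.044).

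Counts over all genes moved more. With the replicate block the genes called higher went from 1668 to 2740 after RANKL, from 317 to 2170 at baseline and from 870 to 1888 in the interaction, and genes called in either direction in Mir182mTg went from 31 to 1822. With the block and TMM factors together they were 4100, 1962 and 3149, and genes lower after RANKL in WT went from 2571 to 4705. The block changed no member's call other than those given beside the results. In Mir182mTg no filter gave 141 genes and DESeq2 124. With 1 library left out, 69 to 212 genes were higher at baseline and 55 to 166 were called in Mir182mTg; a condition left with 1 library was assumed to vary like the others. The cause of these shifts was not tested. The WT RANKL comparisons had no value without both WT RANKL libraries. Depth limits *Tgtp1*, at 0 to 3 reads in 8 libraries.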
